A study of Mus musculus with 12 samples.

Results

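Car8, Vtcn1, Cpxm2 and Slc6a7 are 4 of the 21954 genes listed for the ascending aorta of the mouse, and they were taken because their RNA was higher in the distal than in the proximal ascending aorta of these same libraries. The values that chose them are their RPKM (a read density per kilobase, corrected for library size) by location, so the location difference is given here as a description, without a test. The study asked why dilation in mice heterozygous for Notch1 was limited to the aortic root. It sequenced RNA from both ends of the ascending aorta of 6 mice aged 2 months, 3 labelled Notch1.129S6+/- and 3 wildtype 129S6 littermates. The 12 libraries form 4 groups of 3, namely Notch1+/- distal, wildtype distal, Notch1+/- proximal and wildtype proximal aorta, and each mouse gave 1 distal and 1 proximal library. The labels name no promoter or Cre that would limit the Notch1 change to a cell type, and genotypes are given here as labelled. Every library is whole tissue, in which fewer cells of a type and less RNA per cell cannot be told apart.

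The 4 genes belong to separate families. Car8 encodes a carbonic anhydrase-related protein that lacks the enzyme activity of its family, binds the type 1 inositol trisphosphate receptor and lowers its affinity for its ligand; it is best known from Purkinje cells of the cerebellum. Vtcn1 encodes B7-H4, a cell surface protein of the B7 family that restrains T cells. Cpxm2 encodes a secreted member of the carboxypeptidase N/E family without the residues needed for catalysis, and Slc6a7 a sodium- and chloride-dependent proline transporter of the SLC6 family, best known from glutamatergic synapses of the brain. The ascending aorta is a wall of smooth muscle and elastic fibres whose root joins the heart muscle.

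The genes lie on 4 different chromosomes, in coordinates of mm10. Car8 (ENSMUSG00000041261) spans chr4:8143362-8239041 on the minus strand with 9 merged exons, and Vtcn1 (ENSMUSG00000051076) spans chr3:100825459-100896922 on the plus strand with 6. Cpxm2 (ENSMUSG00000030862) spans chr7:132042816-132154739 on the minus strand with 16, and the position of Slc6a7 is given with its values. In the GENCODE M21 annotation, 7.59% of the exon bases of Cpxm2 are shared with genes on the opposite strand, among them Gm15677 at its start. The library kit does not mark strand, so reads there cannot be told apart. The exons of the other members share no base with another gene.

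Promoters of Vtcn1 and Cpxm2 from RefSeq (GRCm38.p6) are shown because both genes were higher distally, so that their starts can be compared. Each runs from 250 bases before to 50 bases after the start on the gene's own strand, Vtcn1 at chr3:100825209-100825508 on the plus strand and Cpxm2 at chr7:132154692-132154991 on the minus strand. Capitals mark the AP-1 motif TGANTCA in Vtcn1 and the GC box GGGCGG on either strand in Cpxm2.
Vtcn1: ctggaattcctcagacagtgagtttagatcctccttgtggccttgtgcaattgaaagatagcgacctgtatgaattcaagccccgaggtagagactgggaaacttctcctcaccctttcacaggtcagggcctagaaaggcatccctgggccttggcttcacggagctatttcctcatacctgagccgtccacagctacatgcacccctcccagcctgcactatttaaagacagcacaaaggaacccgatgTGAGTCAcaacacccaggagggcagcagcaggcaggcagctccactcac
Cpxm2: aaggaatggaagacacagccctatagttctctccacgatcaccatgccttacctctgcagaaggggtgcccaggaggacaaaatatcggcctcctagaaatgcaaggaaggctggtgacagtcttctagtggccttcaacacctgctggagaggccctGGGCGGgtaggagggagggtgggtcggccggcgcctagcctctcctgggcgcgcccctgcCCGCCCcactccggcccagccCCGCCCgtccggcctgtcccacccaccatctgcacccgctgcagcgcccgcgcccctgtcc

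The Vtcn1 sequence held 1 match to TGANTCA, beginning at position 2 after the start, where 7.81% of all 32851 promoters of this length held at least 1 match on either strand. The Cpxm2 sequence held none of these but 3 matches to GGGCGG, beginning at positions -92, -32 and -11, and 35.7% of promoters held at least 1. The starts also differed in base composition, with 53.7% G and C in Vtcn1 and 66.0% in Cpxm2, against a median of 52.7% over all promoters. The E-box CANNTG matched at position -203 in Vtcn1 and at -111 and 16 in Cpxm2, and 72.3% of promoters held it. TGGGAA, the core recognised by Rbpj, the DNA-binding partner of Notch, matched at position -155 in Vtcn1 only of these 2 sequences, and 25.6% of promoters held it. Neither sequence had a match to TATAAA (held by 13.6% of promoters), to the GATA motif AGATAA (11.2%) or to the CArG box (1.63%). None of the motif matches printed in capitals overlapped another motif searched.

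Car8 had the widest gap between the ends of the ascending aorta. Its level was 2.19, 8.14 and 6.96 RPKM in distal libraries 1 to 3 labelled Notch1+/- and 4.88, 5.76 and 3.92 RPKM in wildtype distal libraries 1 to 3. It was 0.482, 0.957 and 0.604 RPKM in proximal libraries labelled Notch1+/- and 0.467, 0.476 and 0.504 RPKM in wildtype proximal libraries. All 6 distal libraries thus lay above all 6 proximal ones, although Notch1+/- distal library 1 stood well below the other distal libraries. The ratio of mean RPKM, distal over proximal, was 8.46 in Notch1+/- and 10.1 in wildtype mice, and the fitted log2 difference averaged over genotypes was 2.35 (SE 0.26) of log2(RPKM + 0.5), a measure that makes changes of weakly expressed genes look smaller. Within a mouse the ratio ran from 4.55 to 12.1, with a median of 9.48. The proximal level was thinly covered: it rested on 29 to 63 reads per library, against 157 to 509 reads in the distal libraries. Of the 6 proximal values, 1 reached the RPKM that the authors equate with 50 reads and set for reliable quantification.

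Vtcn1 had 4.19, 7.69 and 5.19 RPKM in the distal libraries labelled Notch1+/- and 3.37, 4.37 and 5.58 RPKM in the wildtype distal libraries. Proximally it had 1.29, 1.21 and 1.47 RPKM in mice labelled Notch1+/- and 1.30, 0.853 and 0.893 RPKM in wildtype libraries. The distal and proximal libraries did not overlap, and Notch1+/- distal library 2 was the highest, as it was for Car8. The ratio of means was 4.30 in Notch1+/- and 4.38 in wildtype mice, with a fitted log2 difference over both of 1.71 (SE 0.18). In single mice the ratio ran from 2.60 to 6.38, resting on 128 to 327 reads per distal and 39 to 71 reads per proximal library.

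Cpxm2 was the most abundant of the 4 genes in the distal aorta. It measured 10.0, 7.45 and 4.69 RPKM in Notch1+/- distal and 7.31, 8.85 and 6.55 RPKM in wildtype distal libraries. The proximal libraries gave 3.38, 2.09 and 3.44 RPKM in mice labelled Notch1+/- and 1.93, 2.06 and 2.55 RPKM in wildtype mice. No proximal library reached a distal one, but Notch1+/- mouse 3 came close, with a ratio of 1.36 against 2.56 to 4.30 in the other 5 mice. The ratio of means was 2.49 in Notch1+/- and 3.47 in wildtype mice, and the fitted log2 difference over both was 1.37 (SE 0.19).

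Slc6a7 had the smallest difference and, over distal libraries, the smallest spread of the 4. The gene (ENSMUSG00000052026) spans chr18:60995381-61014199 of mm10 on the minus strand with 15 merged exons. It had 6.34, 6.31 and 4.31 RPKM in Notch1+/- distal and 5.48, 5.62 and 6.19 RPKM in wildtype distal libraries, then 2.03, 3.03 and 3.16 RPKM in Notch1+/- proximal and 1.88, 2.08 and 2.07 RPKM in wildtype proximal libraries. Again the distal and proximal libraries did not overlap, and again Notch1+/- mouse 3 had the lowest ratio, 1.37, against 2.08 to 3.12 in the other 5. The ratio of means was 2.06 in mice labelled Notch1+/- and 2.87 in wildtype mice, with a fitted log2 difference over both of 1.12 (SE 0.15).

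**Figure D1:**
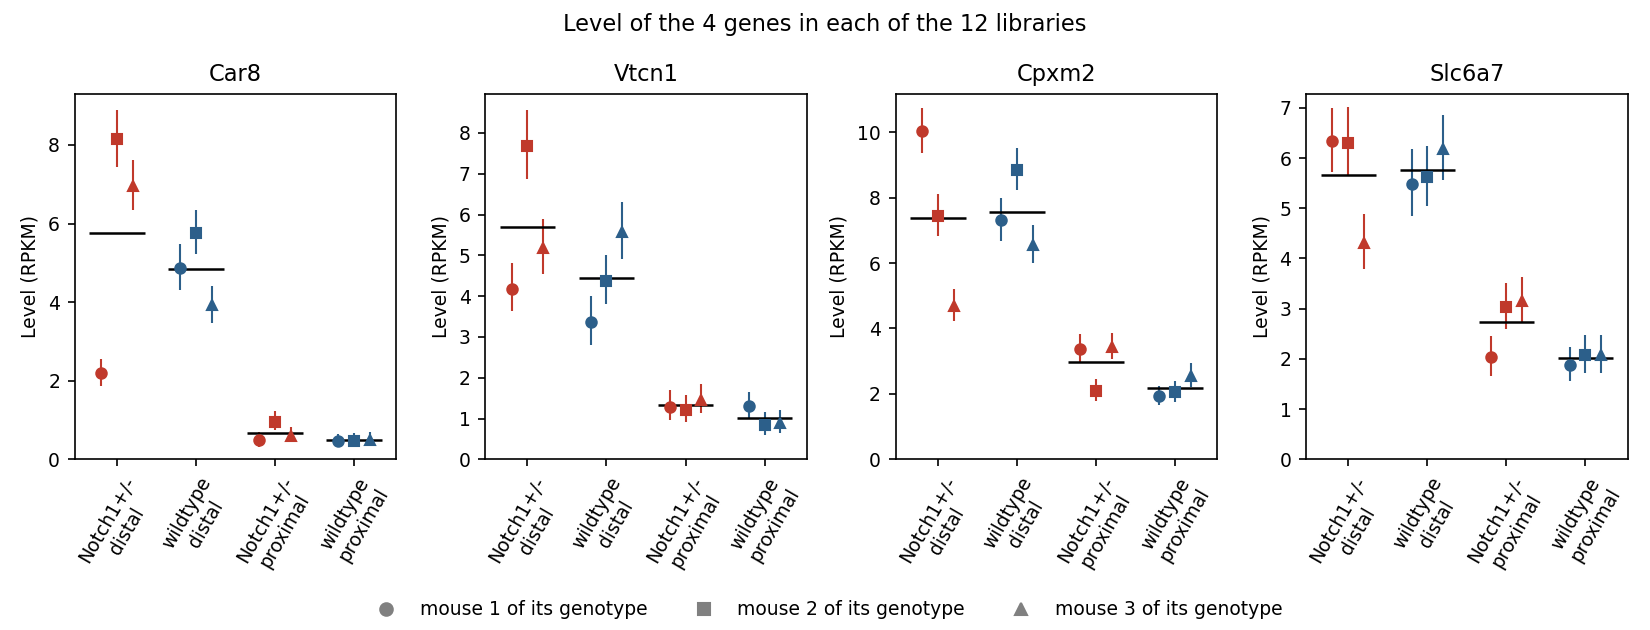
Level of Car8, Vtcn1, Cpxm2 and Slc6a7 in RPKM on linear axes in each of the 12 libraries, by group. Points are libraries with 95% counting intervals, symbols mark the mouse number within its genotype, and horizontal lines are group means; for each gene the 6 distal libraries lie above the 6 proximal ones.

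Complete separation of the 6 distal from the 6 proximal libraries, distal above, was found for all 4 genes and for 1.02% of the 17297 genes tested. The distal library was the higher one in 6 of 6 mice for each of the 4, which held for 5.65% of genes tested. Since the genes were chosen on this contrast, nothing is read from these counts. By the lowest distal over the highest proximal library, Vtcn1 ranked 4, Car8 5, Slc6a7 30 and Cpxm2 33 among the 17297 genes. By the ratio of means the order was different, with Car8 at 4, Vtcn1 at 32, Cpxm2 at 102 and Slc6a7 at 187. The 4 genes were of middling abundance, their mean RPKM lying at percentiles 47.4 to 64.5 of the genes tested.

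**Figure D2:**
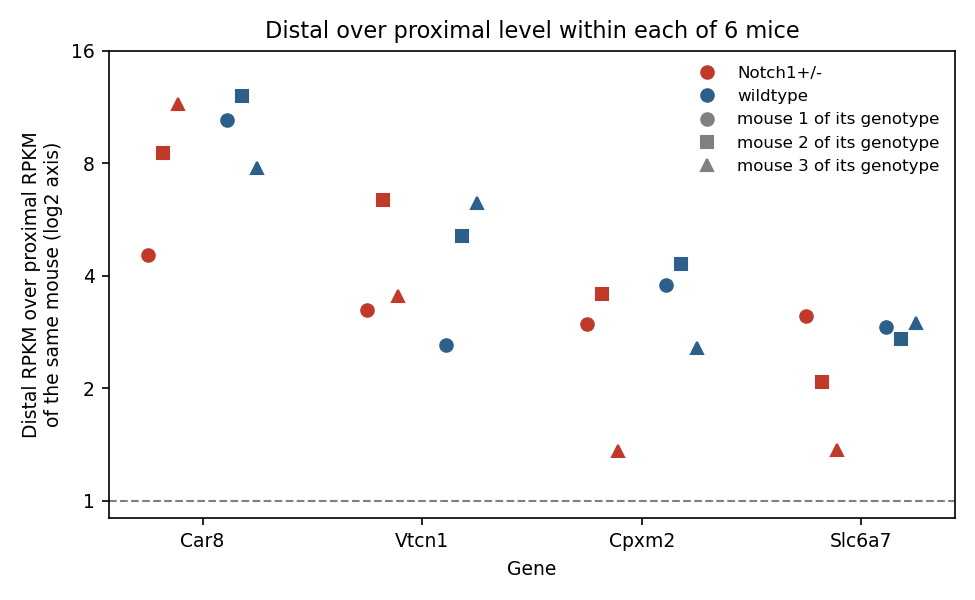
Distal over proximal RPKM of the same mouse for each gene, on a log2 axis, for 3 mice labelled Notch1+/- (red) and 3 wildtype mice (blue); the dashed line marks equal levels. Car8 ratios run from 4.55 to 12.1, while Notch1+/- mouse 3 has the lowest ratio for Cpxm2 (1.36) and Slc6a7 (1.37).

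In order of mean RPKM, a level per length, the distal aorta held Cpxm2 at 7.48 ± 1.85, Slc6a7 at 5.71 ± 0.77, Car8 at 5.31 ± 2.14 and Vtcn1 at 5.06 ± 1.502 RPKM (SD, n = 6 libraries). The last 3 of these lie within each other's SD. The proximal aorta held Cpxm2 at 2.58 ± 0.68, Slc6a7 at 2.37 ± 0.56, Vtcn1 at 1.17 ± 0.24 and Car8 at 0.582 ± 0.191 RPKM (SD, n = 6), and there Cpxm2 and Slc6a7 lie within each other's SD. Car8 and Vtcn1 were thus close to Slc6a7 distally and below both Slc6a7 and Cpxm2 proximally. Spread differed between the genes too: the coefficient of variation over distal libraries was 40.2% for Car8 and 13.6% for Slc6a7.

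The difference of the location effect between genotypes, on the log2 scale, was -0.17 (SE 0.52) for Car8, 0.03 (SE 0.35) for Vtcn1, -0.44 (SE 0.38) for Cpxm2 and -0.39 (SE 0.29) for Slc6a7, Notch1+/- minus wildtype. It is given without a test because the wildtype libraries took part in choosing the genes. The median gene tested had -0.16 for the same quantity.

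Notch1 itself, the gene altered in the heterozygous mice, was not lower in the libraries labelled Notch1+/-. It had 1.18, 1.85 and 1.51 RPKM in distal libraries labelled Notch1+/-, against 1.12, 0.972 and 0.538 RPKM in wildtype distal libraries. Proximally it had 2.20, 1.65 and 1.63 RPKM in Notch1+/- libraries, against 1.11, 1.19 and 1.56 RPKM in wildtype libraries. The groups did not overlap at either location, and the libraries labelled Notch1+/- were the higher ones, which held for 2.63% of all genes tested distally and 7.78% proximally. Directions by genotype below therefore rest on labels that the RNA level of Notch1 goes against. The files give gene totals, and whether the reads come from the intact or the altered allele is not known. Over both locations the log2 difference of Notch1 was 0.47 (SE 0.17; exact permutation p = 0.1, the smallest that 3 mice against 3 can give), and it was not called in the fit over all genes. The Notch targets Hes1, Hey1, Hey2 and Heyl, transcription factors induced by the cleaved receptor, had log2 differences of 0.40, -0.15, 0.15 and 0.32, and none was called.

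Genotype averaged over the locations of a mouse is a comparison that did not choose the genes. None of the 4 was called, with an adjusted p of 1.0 for each (limma, Benjamini-Hochberg over all genes), and 0% of the 17297 genes tested were called, while 2.91% had an unadjusted p under 0.05. Car8 averaged 3.22 ± 1.68 RPKM in mice labelled Notch1+/- and 2.67 ± 0.45 RPKM in wildtype mice (SD, n = 3 mouse means each), a log2 difference of 0.16 with a 95% interval of -0.49 to 0.81 and an exact permutation p of 0.7. Vtcn1 averaged 3.50 ± 0.87 RPKM in mice labelled Notch1+/- and 2.73 ± 0.46 RPKM in wildtype mice, a log2 difference of 0.29 with an interval of -0.09 to 0.67 (exact permutation p = 0.2). Both intervals include 0, and the mouse means of the genotypes overlapped for both genes.

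Cpxm2 averaged 5.18 ± 1.36 RPKM in mice labelled Notch1+/- and 4.88 ± 0.50 RPKM in wildtype mice, a log2 difference of 0.14 with an interval of -0.28 to 0.55 (exact permutation p = 0.7). Slc6a7 averaged 4.197 ± 0.47 RPKM in mice labelled Notch1+/- and 3.89 ± 0.23 RPKM in wildtype mice, a log2 difference of 0.15 with an interval of -0.19 to 0.49. Its mouse means on the log2 scale did not overlap between genotypes (exact permutation p = 0.1, the smallest the design allows), while on the linear scale they did. The share of all genes without overlap was not computed for this contrast, so nothing is read from the separation. Of all genes tested, 57.4% were fitted higher in Notch1+/- here. In the authors' deposited table the p-values for genotype were 0.489 for Car8, 0.0935 for Vtcn1, 0.471 for Cpxm2 and 0.222 for Slc6a7, each with a false discovery rate of 0.999.

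At a single location the genotype comparison shares the wildtype libraries with the choice of genes. Such a choice can lower the distal difference, Notch1+/- minus wildtype, and raise the proximal one. The values of the members at a single location are therefore a description. In the distal aorta the log2 differences, Notch1+/- minus wildtype, were 0.07 (SE 0.37) for Car8, 0.31 (SE 0.25) for Vtcn1, -0.08 (SE 0.27) for Cpxm2 and -0.04 (SE 0.21) for Slc6a7. In the proximal aorta they were 0.25 (SE 0.37), 0.28 (SE 0.25), 0.35 (SE 0.27) and 0.35 (SE 0.21) in the same order of genes. No member was called at either location (adjusted p of 1.0 distally and 0.999 proximally, limma), nor was any gene tested, with 3.03% of genes distally and 3.24% proximally at an unadjusted p under 0.05. The groups overlapped for each of the 4 genes at both locations. All 4 fitted proximal differences were above 0, as were those of 68.4% of all genes tested, whose median was 0.11. After median-of-ratios scaling, which brings the libraries to a common median ratio, the proximal differences were 0.18, 0.19, 0.24 and 0.24, and the distal one of Slc6a7 turned to 0.011.

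**Figure D3:**
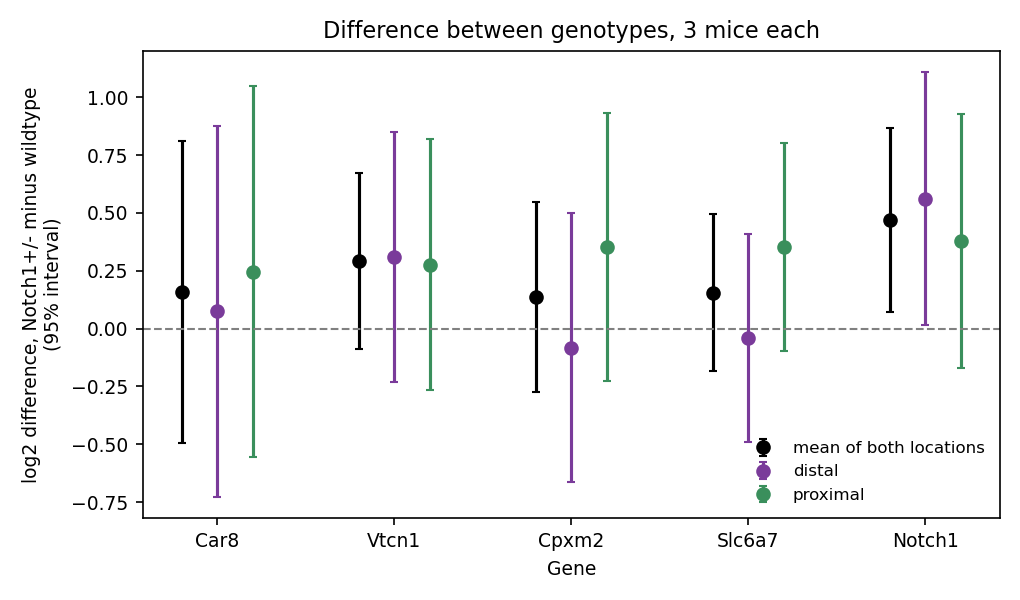
Fitted log2 difference, Notch1+/- minus wildtype, with its 95% interval, for the 4 genes and Notch1, as the mean of both locations (black), in distal (purple) and in proximal (green) libraries; the dashed line marks no difference. Every interval of the 4 genes includes 0, and Notch1 has 0.47 as the mean of both locations.

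Relatives and partners of the 4 genes were compared by location as well. Among the 47 relatives and partners tested, the location contrast called 1 higher and 1 lower in the distal aorta, where 0.728% of all genes tested were called higher and 0.775% lower. Of the carboxypeptidase N/E family to which Cpxm2 belongs, 4 further members were tested, and all 4 were fitted higher distally (58.5% of all genes were), with a median log2 difference of 0.62 against 0.05 over all genes. Aebp1, a secreted collagen-binding carboxypeptidase-like protein, passed the test: it had 122, 175 and 111 RPKM in Notch1+/- distal and 86.0, 121 and 121 RPKM in wildtype distal libraries. Its proximal levels were 93.5, 79.3 and 72.1 RPKM in mice labelled Notch1+/- and 62.7, 67.1 and 57.2 RPKM in wildtype libraries. The locations overlapped over all 12 libraries, yet the distal library was higher in 6 of 6 mice, and the log2 difference was 0.75 (SE 0.15, adjusted p = 0.0233, limma). This call was lost (adjusted p 0.0574 to 0.0700) without wildtype distal library 2 or 3, Notch1+/- proximal library 2 or 3, or wildtype proximal library 3, and the adjusted p was 0.0992 without both distal libraries richest in heart muscle RNA. With the mouse as a replicate block the adjusted p of Aebp1 was 0.0459 (limma).

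The other 3 tested members of that family did not pass. Cpxm1, the like-named relative of Cpxm2, had 4.23 ± 1.31 RPKM distally and 2.15 ± 0.72 RPKM proximally (SD, n = 6; log2 0.82, adjusted p = 0.150, limma). Cpe, which trims prohormones, had 319 ± 43.1 RPKM distally and 229 ± 36.4 RPKM proximally (log2 0.48, adjusted p = 0.114, limma). Cpd, a carboxypeptidase of the trans-Golgi network, had 7.22 ± 1.02 RPKM distally and 5.02 ± 0.43 RPKM proximally (log2 0.48, adjusted p = 0.107, limma). Of the carboxypeptidase A/B family, Cpa3 was the gene listed and it was too low to test.

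None of the 7 tested carbonic anhydrases passed in either direction, and their median log2 difference was -0.00. Car3, the most abundant, varied widely between libraries, with 23.3 ± 37.6 RPKM distally and 28.1 ± 31.3 RPKM proximally (SD, n = 6), while Car11, like Car8 a member without catalytic activity, had 10.6 ± 2.15 and 8.03 ± 2.83 RPKM in distal and proximal libraries (adjusted p = 0.550, limma). The mitochondrial enzyme Car5b had 2.01 ± 0.92 and 2.38 ± 1.01 RPKM in distal and proximal libraries (adjusted p = 0.841, limma). Of 12 tested genes around the inositol trisphosphate receptor, to which the Car8 protein binds, 0 passed, with a median of 0.03. The receptor Itpr1 had 17.5 ± 4.08 RPKM distally and 15.0 ± 2.25 RPKM proximally (log2 0.20, adjusted p = 0.736, limma), and Atp2a2, Plcb4 and Irag1, the most abundant genes of that list, were not called either.

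Of the B7 ligands related to Vtcn1, 4 were tested and 0 passed: Cd276, which also acts on T cells, had 2.21 ± 0.54 RPKM distally and 1.49 ± 0.43 RPKM proximally (SD, n = 6; log2 0.45, adjusted p = 0.367, limma). Icosl had 2.00 ± 0.63 RPKM distally and 2.14 ± 0.43 RPKM proximally, and Cd274 had 1.97 ± 1.10 RPKM distally and 1.61 ± 0.76 RPKM proximally, both without passing. Among receptors of that family and checkpoint partners 3 were listed and 1, Tigit, was high enough to test, without passing (log2 0.73, adjusted p = 0.516, limma), while Lag3 and Havcr2 were too low. Of 8 T cell markers only Trac was listed, at or below 0.811 RPKM in each library and at the lowest value the file gives in 7 of 12.

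Of the SLC6 transporters related to Slc6a7, 4 were tested and 0 passed, with a median log2 difference of -0.02. The taurine transporter Slc6a6 had 14.0 ± 3.01 RPKM distally and 16.7 ± 2.47 RPKM proximally, the creatine transporter Slc6a8 7.34 ± 2.12 and 7.23 ± 0.81 RPKM, and the glycine transporter Slc6a9 3.85 ± 0.90 and 2.79 ± 1.01 RPKM, distal before proximal (SD, n = 6). Of 15 tested genes of proline transport, synthesis, breakdown and hydroxylation outside that family, 1 passed and it was lower distally. P4ha3, a catalytic subunit of the enzyme that hydroxylates proline in collagen, had 0.336, 0.851 and 1.33 RPKM in Notch1+/- distal and 0.568, 2.75 and 0.644 RPKM in wildtype distal libraries. It had 4.27, 2.40 and 3.70 RPKM in Notch1+/- proximal and 2.74, 3.15 and 2.63 RPKM in wildtype proximal libraries. The distal library was the lower one in every mouse, although wildtype distal library 2 lay among the proximal values (log2 -1.34, SE 0.29, adjusted p = 0.0403, limma). That call was lost (adjusted p 0.0625 to 0.111) when any single library other than Notch1+/- distal 3 or wildtype distal 2 was left out, and with a pseudocount of 0.1 (adjusted p = 0.0501, limma) or RPKM rescaled to a constant sum (adjusted p = 0.0506, limma). With the mouse as a replicate block the adjusted p of P4ha3 was 0.0493 (limma). The abundant members P4hb, Slc38a2 and Oat were not called. None of these relatives was called by genotype.

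**Figure D4:**
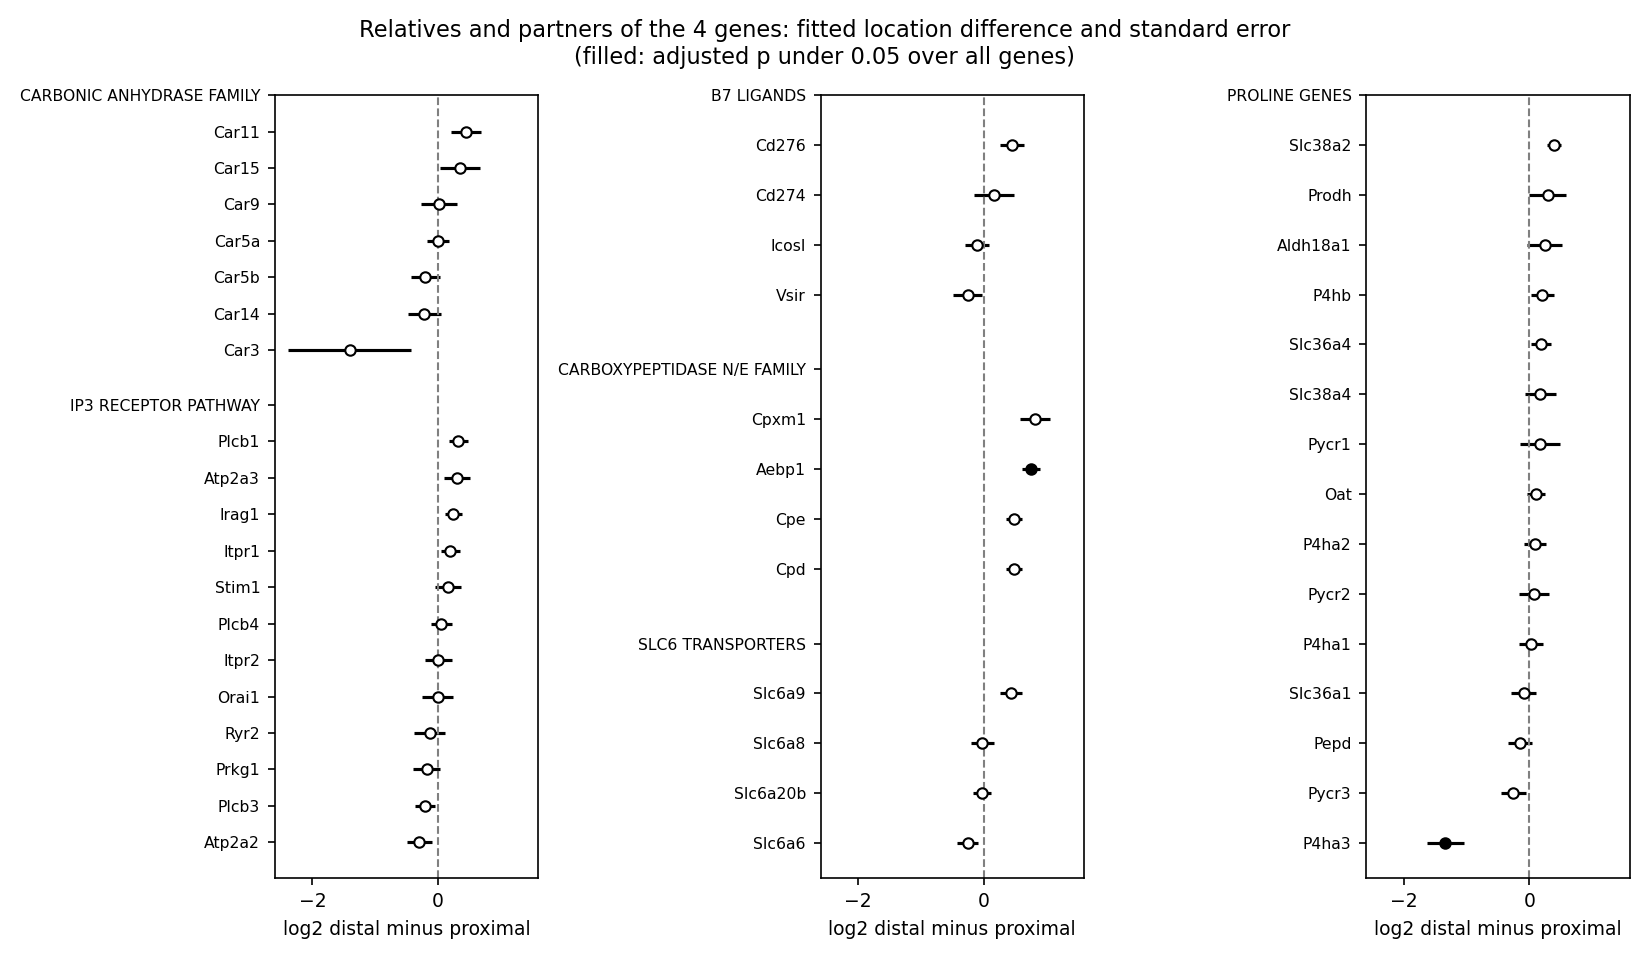
Fitted log2 difference, distal minus proximal, with its standard error for the tested relatives and partners of the 4 genes, by family. Filled points passed an adjusted p of 0.05 over all genes: Aebp1 at 0.75 and P4ha3 at -1.34; the 4 carboxypeptidases of the N/E family lie right of 0.

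The genes whose pattern over the 12 libraries was most like each member are named as a description, by Pearson's r of log2(RPKM + 0.5) among all genes tested. A gene close to a member in this sense tends to differ by location as the member does, so its levels by location are no separate result. For Car8 they were Gm26883 (r = 0.96), the secreted guidance factor Sema3c (0.96; 16.3 ± 1.58 RPKM distally and 8.78 ± 0.65 RPKM proximally) and the zinc finger gene Tshz2 (0.95). For Vtcn1 they were Dlgap1 (0.98), Pex5l (0.97) and the homeobox gene Hoxa2 (0.96; 9.18 ± 1.85 RPKM distally and 4.10 ± 0.86 RPKM proximally). For Cpxm2 they were the adventitial fibroblast gene Pi16 (0.97; 26.9 ± 4.98 RPKM distally and 12.9 ± 2.85 RPKM proximally), Lgi2 (0.95) and 5730596B20Rik (0.94). For Slc6a7 they were Hhip, which binds hedgehog ligands (0.96), Sod3, the extracellular superoxide dismutase (0.96; 262 ± 36.7 RPKM distally and 146 ± 13.1 RPKM proximally), and Gm16485 (0.95). Hhip had 1.28 to 2.51 RPKM in distal libraries and at most 0.398 RPKM in proximal ones, where low values are listed at a floor of 0.16 RPKM.

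Once the 4 group means were taken off, the closest genes were others, apart from Gm26883, which was again among the closest to Car8 (r of residuals 0.89). They were Gm12403 (0.91) and 9130019O22Rik (0.89) for Car8, and Copb2 (0.97) and Ociad1 (0.97) for Vtcn1. For Cpxm2 they were mmu-mir-1843a, Art4 and Cycs-ps2 (0.94 to 0.95), and for Slc6a7 Zfp866, 1200014J11Rik and Tbccd1 (0.91 to 0.92). These are the highest values among the genes tested, over 12 libraries that share 6 mice. Between the members, r over the 12 libraries was 0.80 to 0.94, and r of the residuals was -0.57 (Car8 with Cpxm2) to 0.43 (Car8 with Vtcn1).

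Within the 6 distal libraries, 10 relations were computed among the 4 genes and the summed heart muscle markers, and none passed adjustment over the 10. The highest Pearson's r was that of Cpxm2 with Slc6a7, at r = 0.76 (exact permutation p = 0.131, adjusted p = 0.653) and Spearman's rho = 0.71 (exact permutation p = 0.136, adjusted p = 0.705). It rested on the extreme libraries, since r was -0.50 without the 2 libraries farthest from the median of Cpxm2. Cpxm2 with the heart muscle sum had Pearson's r = 0.71 (exact permutation p = 0.0889, adjusted p = 0.653) and Spearman's rho = 0.66 (exact permutation p = 0.175, adjusted p = 0.705), and r was 0.15 without the 2 farthest libraries.

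Of the 16 nearest tested genes, 2 towards each side of a member, 0 were called higher in the distal aorta (0.728% of all genes tested were). Among the 16, Gm25355 and n-R5s159 overlap Car8 and Cpxm2. The 1 called lower (0.775% of all genes were) was Mir5107, 183218 bases from Slc6a7 (log2 -2.55, adjusted p = 0.0103, limma). Pdgfrb, a growth factor receptor of mural cells and fibroblasts 30951 bases from Slc6a7, had 19.4 ± 4.32 RPKM distally and 13.2 ± 2.69 RPKM proximally (SD, n = 6) without passing (adjusted p = 0.129, limma). Ptgfrn, 143310 bases from Vtcn1, had a log2 difference of 0.25. Bub3 and Chst15, 470918 and 81041 bases from Cpxm2, had 0.21 and -0.44.

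RNA of other cell types moved with location beside the 4 genes. Smooth muscle markers, 9 of 9 listed, summed to 3079 to 5509 RPKM in distal and 3052 to 4833 RPKM in proximal libraries, led by Acta2 and Myh11, so both ends carry the defining genes of the aortic wall. Of these 9, Des, an intermediate filament gene also used by heart muscle, was called, and it was lower distally (25.4 ± 7.23 RPKM against 73.6 ± 8.14 RPKM proximally). Heart muscle markers, 12 of 12 listed and led by Actc1 and Myh6, were fitted lower distally in 12 of 12 and called lower in 8 of 12 (0.775% of all genes tested were called lower), with a median log2 difference of -2.97. Their sum was 27.8 to 355 RPKM in distal and 278 to 1736 RPKM in proximal libraries, and wildtype distal library 2 with 355 RPKM and Notch1+/- distal library 1 with 174 RPKM were the highest distal ones. Without those 2 libraries the fitted location difference was 2.55 for Car8, 1.80 for Vtcn1, 1.19 for Cpxm2 and 1.09 for Slc6a7. These values are a description, since the genes were chosen on this difference and leaving out libraries could not reverse it.

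Of the fibroblast markers, 7 of 7 listed and led by Dcn and Col1a1, 4 were fitted higher and 3 lower distally. Pi16 was called higher distally (0.728% of all genes tested were). The fibroblast sum was 517 to 709 RPKM in distal and 478 to 925 RPKM in proximal libraries. Mesothelial markers, 5 of 6 listed and led by Upk3b and Muc16, were all 5 fitted higher distally (58.5% of all genes were) with 0 called. They summed to 20.3 to 50.6 RPKM distally and 4.75 to 28.9 RPKM proximally. Macrophage markers, 6 of 7 listed and led by C1qb and Cd68, summed to 7.63 to 28.4 RPKM distally and 22.1 to 31.0 RPKM proximally. All 5 tested were fitted lower distally, with a median log2 difference of -0.62 against 0.05 over all genes, again with 0 called. Of the endothelial markers, 7 of 7 listed and led by Pecam1 and Cdh5, 3 were fitted higher and 4 lower distally. Emcn was called lower distally (0.775% of all genes tested were) and 0 were called higher. Pecam1 went the other way, with 27.0 ± 9.18 RPKM distally and 15.5 ± 4.45 RPKM proximally (SD, n = 6). Endothelial sums were 25.4 to 55.7 and 21.2 to 40.6 RPKM, distal before proximal. The part of these cell types in the distal level of the 4 genes was not tested.

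Further lists covered other cell types. Neuronal markers, 2 of 8 listed (Uchl1 and Stmn2), summed to 2.30 to 5.76 RPKM distally and 2.17 to 3.81 RPKM proximally. Of Schwann cell markers, S100b had 0.912 ± 0.313 RPKM distally and 1.40 ± 0.359 RPKM proximally (SD, n = 6; adjusted p = 0.496, limma). Sox10 and Cdh19 were too low to test: Sox10 had at most 0.218 RPKM in distal libraries and 0.519 to 0.990 RPKM in proximal ones, and Cdh19 did not exceed the floor in any of the 6 distal libraries, against 0.389 to 0.848 RPKM in proximal ones. Both were thus higher in each proximal library than in any distal one, which held for 0.838% of the genes tested. Neither gene was among those tested, and both were named after their values were seen. The part of Schwann cells in the distal level of the 4 genes was not tested. Epithelial markers, 4 of 7 listed and led by Krt18 and Krt19, summed to 4.23 to 12.6 RPKM distally and 3.09 to 8.34 RPKM proximally, with Krt14 at the floor in 8 of 12 libraries. Thymus epithelium, 2 of 5 listed (Psmb11 and Ccl25), gave 2.22 to 3.73 and 2.31 to 3.40 RPKM, fat markers, 6 of 6 listed and led by Fabp4 and Plin1, 2.61 to 76.0 and 8.79 to 58.9 RPKM, and erythroid markers, 5 of 5 listed and led by Hba-a2 and Hba-a1, 12.1 to 135.7 and 4.28 to 180.8 RPKM, each distal before proximal. Neither S100b nor any tested marker of the other 5 lists in this paragraph was called by location.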

How the data were processed

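RNA sequencing of 12 libraries from 6 mice was analysed. Per the labels' protocols, 10 ng of total RNA was amplified with a kit (NuGEN Ovation RNA-Seq System v2) that does not mark strand, and 50-base read pairs were sequenced. The submitters' processing notes name TopHat2 2.1.0, Bowtie2, R 3.2.2 and the build mm10. How reads were counted, and over which annotation, is not given in the sources used here. Per the file headers, the authors deposited an RPKM for every gene and library, with low values replaced by a floor of 0.16 RPKM (9.88% of values were at or below it). The authors' deposited table also holds ANOVA p-values, of which those for genotype are quoted. Total reads were 26518332 to 36742096 per library, and the reads behind a value were worked back from the RPKM steps (86.8% to 89.2% of values whole within 0.02), with denominators of 14475843 to 20017587 reads. Their 95% intervals are Poisson intervals and cover counting error only. A further 24 columns of per-sample values (a re-sorted copy and a correlation matrix) were not used.

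Differences were fitted with limma 3.58.1 (trend) in R 4.3.3 on log2(RPKM + 0.5), for 17297 genes with at least 1 RPKM in at least 3 of 12 libraries, in 1 model with 4 group means. All 4 members passed this filter, and they could have passed it through their distal libraries alone. The model treated the 12 libraries as independent, although each mouse gave a distal and a proximal one. Genotype averaged over locations used the mean per mouse, 3 against 3. A call means a 2-sided p under 0.05 after Benjamini-Hochberg adjustment over all genes tested, and exact 2-sided permutation tests (scipy 1.17.1) were run on single genes. On simulated data with 17297 genes, a 2-fold change was called for 46% and a 4-fold change for 91% of changed genes in the averaged genotype contrast, and for 57% and 97% in the averaged location contrast. The changed genes were drawn from the more abundant ones, and the simulated libraries shared no mouse. These shares may therefore not hold for weakly expressed genes or for libraries that share a mouse.

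The members, the gene lists (8 lists of relatives and partners, 13 of cell types) and the tests were chosen with earlier results of these data known. Genes named were the members, the 3 most like each member by each of the 2 measures, in each list of relatives every gene called and the 3 most abundant, the 2 most abundant of each cell type list, Notch1 and 4 Notch targets; neighbours, Cpxm1, Itpr1, Des, Emcn, Pi16 as a marker, Krt14, Sox10 and Cdh19 were named after their values were seen. The summed level of the Schwann cell list and 1 gene that this rule names are not reported here. Lists used 3 older symbols (Irag1 as Mrvi1, Vsir as 4632428N05Rik, Pycr3 as Pycrl). Promoters came from RefSeq, and 2 of the 4 members are shown. The distal and proximal library of a replicate number carry the same customer number in 6 of 6 mice, so they come from the same mouse; their deviations from group means correlated at 0.0731 to 0.216. Alternatives were 2 other pseudocounts, no filter, 2 rescalings, the mouse as a replicate block, and leaving out libraries.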

Additional observations from a re-analysis of the deposited data

Results flagged for a closer look

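For Car8, the highest of the 6 proximal libraries, that of mouse 2 labelled Notch1+/-, stood apart from the other 5 at 0.957 RPKM, where the other 5 lay between 0.467 and 0.604 RPKM. It was the 1 result so marked among 8 sets of 6 libraries examined (each gene at each location), and about 1 set in 20 is marked by chance. The same mouse had the highest distal level of Car8, 8.14 RPKM. Its proximal value rested on 63 reads, with a 95% counting interval of 0.735 to 1.22 RPKM. That interval overlapped the one of Notch1+/- proximal library 3, the next highest (43 reads, 0.437 to 0.814 RPKM).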

How the results depend on the processing

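The fitted location difference of each of the 4 genes kept its direction under every alternative run. The genes were chosen on this difference and their distal and proximal libraries did not overlap. Leaving out libraries could therefore not reverse it, and nothing is read from the kept direction. With a pseudocount of 0.1 the location difference was 2.91 for Car8 and 2.00 for Vtcn1, since a smaller pseudocount shrinks low values less. No member was called by genotype under any alternative, the lowest adjusted p of a member being 0.928 (limma). The distal genotype difference of Slc6a7 reversed to 0.011 after median-of-ratios scaling. Leaving out 1 library at a time gave, for the genotype difference averaged over locations, 0.02 to 0.35 for Car8, 0.18 to 0.40 for Vtcn1, -0.035 to 0.32 for Cpxm2 and 0.03 to 0.29 for Slc6a7. In distal tissue it gave -0.24 to 0.60 for Car8, 0.09 to 0.49 for Vtcn1, -0.32 to 0.19 for Cpxm2 and -0.13 to 0.13 for Slc6a7. In proximal tissue it gave 0.08 to 0.37, 0.20 to 0.41, 0.25 to 0.55 and 0.25 to 0.52 in the same order. The location difference of the members then ran from 2.19 to 2.61, 1.6 to 1.80, 1.25 to 1.51 and 1.04 to 1.21.

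Among all genes, 260 were called by location averaged over genotypes, 141 to 228 with 1 library left out and 156 without wildtype distal library 2 and Notch1+/- distal library 1. In wildtype, 41 were called, 7 to 45 with 1 library left out and 21 with the mouse as a replicate block; in libraries labelled Notch1+/-, 44 were called, 14 to 51 with 1 library left out and 29 with a pseudocount of 0.1. Of the relatives, 2 were called, 0 to 3 with 1 library left out, and 1 each with a pseudocount of 0.1, with RPKM rescaled to a constant sum and without those 2 libraries. The replicate block moved no other count by over 1.5 times. Leaving out 1 library gave 0 to 1 gene called by genotype in distal and in proximal tissue. The cause of these shifts was not tested. Depth limits the proximal level of Car8 most, with 29 to 63 reads per library.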
